A study of Homo sapiens with 6 samples.

Results

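Cadherins and protocadherins are cell surface proteins whose extracellular repeats bind calcium and hold neighbouring cells together. All 89 protein-coding genes of the human GENCODE annotation named *CDH* followed by a number or *PCDH* followed by any suffix were taken, out of 60671 genes listed in each count file. They comprised 53 protocadherins of the PCDHA, PCDHB and PCDHG clusters and 36 other genes. Expression was measured by 3' mRNA sequencing in the K562 line, which was derived from a chronic myeloid leukemia and grows in suspension. All 6 libraries came from cultures of 1 clone in which doxycycline switches on Lamin B1 fused to M.CviPI, an enzyme that methylates GpC sites. For 72 h, 3 cultures received 1 µM GSK343, an inhibitor of EZH2 (EZH2i), and 3 cultures received DMSO at 0.1%. Both groups were given doxycycline at 1 µg/mL for the last 24 h, so the fusion was induced in every library and its effect was not part of the comparison.

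Classical cadherins bind catenins through their cytoplasmic tails and connect adherens junctions to actin, and they are divided into type I and type II by sequence. Protocadherins lack the catenin-binding tail and are best known from neurons. The genes of the 3 protocadherin clusters lie in tandem on chromosome 5, and each neuron expresses a small choice of them, which gives the cell a surface identity. EZH2 is the catalytic subunit of the Polycomb repressive complex PRC2, which places the repressive H3K27me3 mark. The comparison asked which transcripts changed when this enzyme was inhibited.

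Reads on genes numbered from 6327544 to 8987768 per library, and 12364 genes had enough reads for edgeR's quasi-likelihood test. Of these, 413 (3.34%) were called higher in EZH2i and 114 (0.922%) were called lower at an adjusted p-value under 0.05. Of the 9 K562 and erythroid markers, all had reads and 8 were tested, and the globin genes *HBZ* (1.15 on the log2 scale; edgeR, adjusted p = 6.14e-05) and *HBG2* (0.58; edgeR, adjusted p = 0.0251) were called higher. By contrast, the 3 endothelial markers *VWF*, *KDR* and *TEK* and the neuronal markers *NEUROD1* and *SNAP25* were at 0 reads. The *EZH2* transcript was at 335 ± 22.9 CPM in DMSO and 293 ± 20.6 CPM in EZH2i (SD, n = 3 each). Its log2 fold change of -0.19 did not pass (edgeR, adjusted p = 0.306). GSK343 acts on the enzyme and not on its transcript, so this level does not check the labels.

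Of the 89 genes, *PCDH1* alone was called higher after EZH2 inhibition, and no cadherin or protocadherin was called lower by edgeR or DESeq2. Among the 4 members in edgeR's main test, none had a lower level at an unadjusted p under 0.05. The other members had too few reads for that test. Reads were scarce across these families. In the 6 libraries together, 45 of the 89 genes (50.6%) had no read, 32 had between 1 and 9, 8 had 10 or more but too few for the test, and 4 were tested (*PCDH1*, *PCDH9*, *CDH24* and *PCDHGA6*). Among 19911 protein-coding genes matched in the files, 25.2% had no read and 53.5% were tested, in place of 4.49% of the members. For a gene with transcript ends of its own, no read in 6 libraries allows up to 0.065 RPM (reads scaled to a total of 1000000 on genes), the level of 3 reads over all libraries. No such limit holds for the PCDHA and PCDHG genes, *PCDH20* and the *PCDH11X* and *PCDH11Y* pair, whose transcripts share sequence with other genes. The limit and the intervals given here cover counting error only, and 3' reads without molecular identifiers are not independent molecules.

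**Figure D1:**
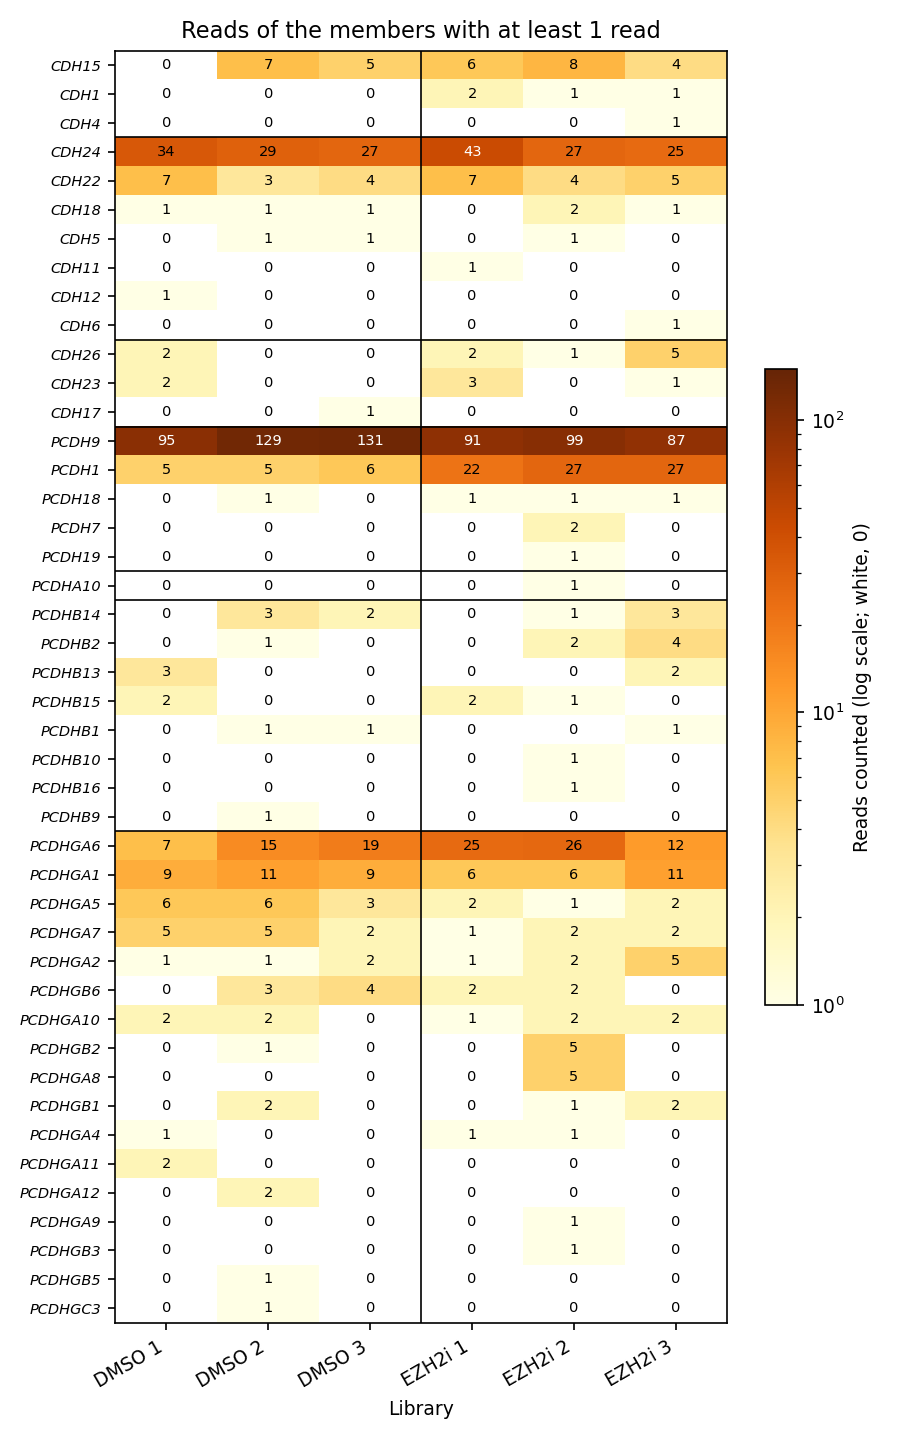
Reads counted in each of the 6 libraries (columns) for the 44 members with at least 1 read (rows, grouped by family between the horizontal lines); colour gives the read number on a log scale and white is 0. *PCDH9*, *CDH24*, *PCDHGA6* and *PCDH1* carry most of the reads, and *PCDH1* is darker in the EZH2i libraries.

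*PCDH1* encodes a protocadherin outside the clusters, of the delta type, known from airway epithelium. It had 5, 5 and 6 reads in DMSO replicates 1, 2 and 3 and 22, 27 and 27 reads in EZH2i replicates 1, 2 and 3. Every EZH2i library lay above every DMSO library. Given as CPM, that is, per library after TMM scaling, these were 0.782, 0.594 and 0.681 CPM in DMSO and 2.98, 3.40 and 3.87 CPM in EZH2i. The mean rose from 0.685 ± 0.0942 CPM to 3.42 ± 0.444 CPM (SD, n = 3 each). This was a 4.94-fold change (log2 2.30 ± 0.397 standard error), with an adjusted p of 0.00318 by edgeR. The change was the 30th largest among the 413 genes called higher.

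The difference in *PCDH1* was larger than the SD within either group, and the intervals for counting error did not overlap. Those intervals treat reads as independent molecules and so can be too narrow. The summed reads gave 0.666 RPM in DMSO (exact Poisson 95% interval 0.381 to 1.08, 16 reads) and 3.44 in EZH2i (2.71 to 4.30, 76 reads). Leaving out each library in turn kept the log2 fold change between 2.21 and 2.39 and the adjusted p between 0.00417 and 0.0245 (edgeR). All 3 EZH2i libraries reached the minimum of 10 reads and none of the DMSO libraries did, so the gene entered the test through the group in which it was high, and the count of called members is not read against the 3.34% called higher among all tested genes. When at least 10 reads were required in every library, *PCDH1* was not tested and no member was called. Permuting 3 libraries against 3 exactly can give no two-sided p below 0.1, and the call therefore uses the fit over all tested genes. In bulk RNA, more cells with the transcript and more transcript per cell cannot be told apart.

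**Figure D2:**
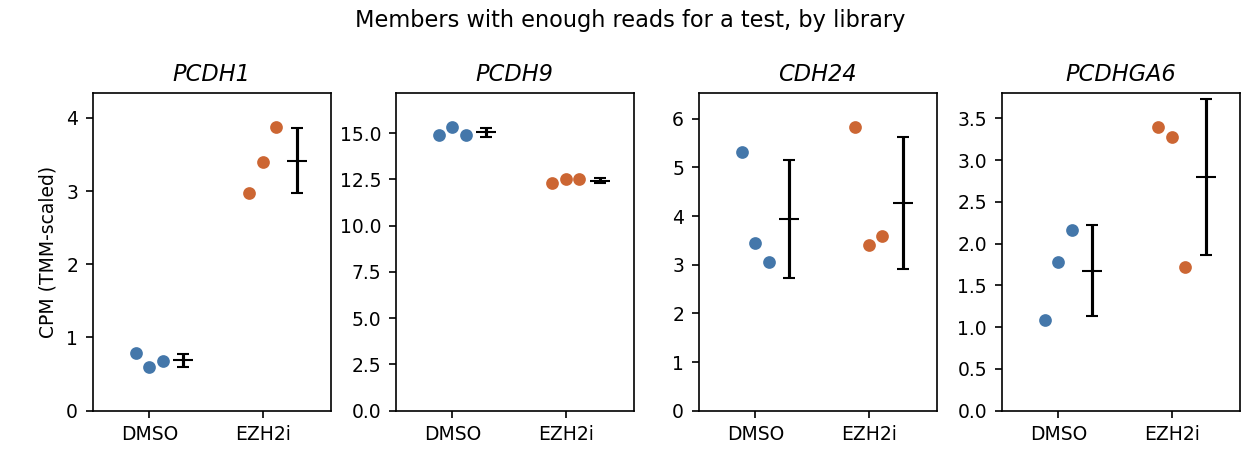
Expression (CPM after TMM scaling, each panel with its own axis from 0) of the 4 tested members in DMSO (blue) and EZH2i (orange); points are libraries, and the bar beside them gives the mean and SD. The 3 EZH2i points of *PCDH1* lie from 2.98 to 3.87 CPM, above the DMSO points, while the points of *CDH24* and *PCDHGA6* overlap between the groups.

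*PCDH1* lies on the minus strand of chromosome 5 (ENSG00000156453, chr5:141853090-141879246, GRCh38), 340.0 kb beyond the end of the PCDHG cluster. None of its exonic bases lie in exons of another gene on either strand, and none of the 50-base stretches in the last 500 bases of its coding transcripts occur in another gene, so its reads could be assigned to it. The 250 bases before the start of its canonical transcript (chr5:141878411-141878660, GRCh38, minus strand) lie in an intron of a longer transcript of the same gene. They are shown because PRC2 is known to occupy CpG-rich promoters, and CpG pairs are in capitals:
PCDH1: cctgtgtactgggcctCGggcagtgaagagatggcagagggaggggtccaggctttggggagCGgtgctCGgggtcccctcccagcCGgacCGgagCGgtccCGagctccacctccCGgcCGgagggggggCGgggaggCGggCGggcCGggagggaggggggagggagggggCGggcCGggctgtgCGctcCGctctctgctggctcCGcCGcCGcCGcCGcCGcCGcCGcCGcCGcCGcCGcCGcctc

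This stretch held 30 CpG pairs and 80.4% G and C. Among the 35116 RefSeq promoter windows of the same length on GRCh38.p14, the median was 11 CpG pairs and 87.6% had fewer than 30. The RefSeq table places the start of *PCDH1* 8783 bases further into the gene, where the 250 bases before it held 6 CpG pairs. Reads at the 3' end do not show which start was used. The window before the RefSeq start of *PCDH9*, which was not called, held 20 CpG pairs.

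The genes around *PCDH1* were looked at after its change was seen. Of 11 tested genes outside the cadherin families within 500 kb, 1 was called higher (3.34% among all tested genes), none was called lower (0.922%) and 10 were not called, with log2 fold changes from -0.42 to 0.26. The called gene was *ARAP3*, a GTPase-activating protein for Arf that lies 171 kb away on the same strand. It had 20, 23 and 28 reads in DMSO replicates 1, 2 and 3 and 51, 41 and 42 reads in EZH2i replicates 1, 2 and 3, and the groups did not overlap. On the log2 scale it rose by 1.00 ± 0.265 (standard error), with an adjusted p of 0.0414 by edgeR. The call was lost in each of the 6 fits that left out a library (edgeR, adjusted p from 0.0512 to 0.143) and with DESeq2 (adjusted p = 0.126), and held under the other 6 of 13 alternatives, with log2 differences from 0.89 to 1.10 over all of them.

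**Figure D3:**
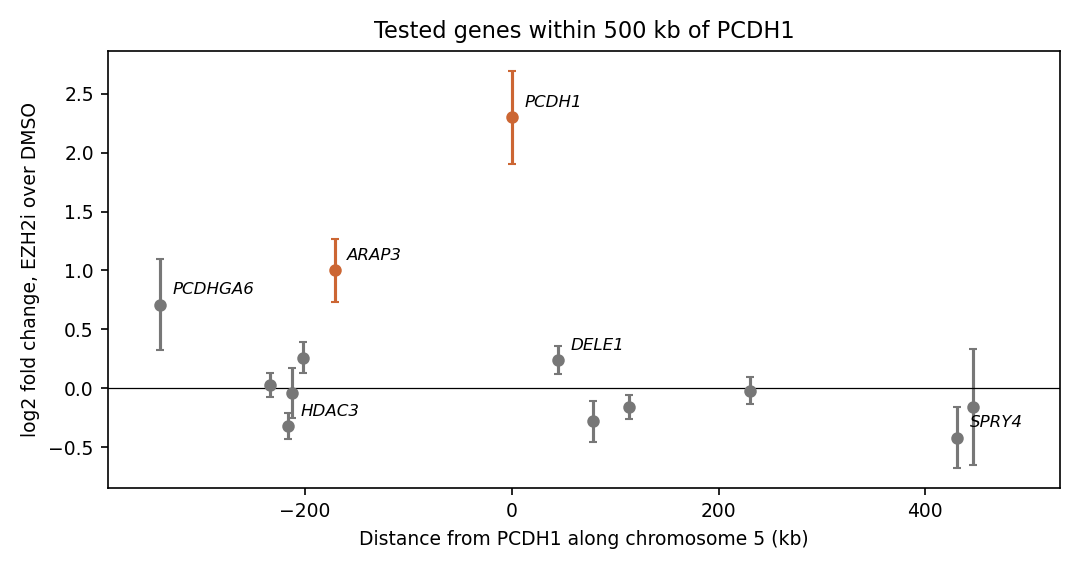
log2 fold change of EZH2i over DMSO (vertical axis, bars give the standard error) for the tested genes within 500 kb of *PCDH1*, against the distance in kb between the genes (horizontal axis, negative towards the protocadherin clusters); orange genes were called and grey genes were not. *PCDH1* at 2.30 and *ARAP3* at 1.00 stand above their neighbours, which lie between -0.42 and 0.71.

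*PCDH9*, another protocadherin of the delta type, known from the nervous system, had the most reads of all members. It had 95, 129 and 131 reads in DMSO replicates 1, 2 and 3 and 91, 99 and 87 reads in EZH2i replicates 1, 2 and 3. After scaling, DMSO libraries held 14.9, 15.3 and 14.9 CPM and EZH2i libraries 12.3, 12.5 and 12.5 CPM. All EZH2i values lay below all DMSO values, but the difference of -0.27 ± 0.157 on the log2 scale (standard error) did not pass (edgeR, adjusted p = 0.357). The antisense gene *PCDH9-AS1* covers 0.5% of its exonic bases, and whether counting used strand is not given in the sources used here.

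The remaining protocadherins outside the clusters had almost no reads. *PCDH18* had 4 reads, *PCDH7* had 2 and *PCDH19* had 1 over the 6 libraries, while the other 8 genes, among them *PCDH8*, *PCDH10*, *PCDH12*, *PCDH15*, *PCDH17* and *PCDH20*, had none. For *PCDH20*, 91.3% of the exonic bases lie in exons of another gene on the same strand. The coding transcripts of *PCDH11X* and *PCDH11Y*, also at 0, shared from 30.6% to 77.8% of the stretches at their ends with another gene, so 0 reads of these 3 genes does not bound their transcripts. Summed over this family, libraries held from 15.2 to 15.8 RPM in DMSO and from 15.7 to 16.6 in EZH2i. *PCDH9* gave 86.5% of these reads.

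Among the classical cadherins, *CDH24*, a type II cadherin, was the one gene tested. It had 34, 29 and 27 reads in DMSO replicates 1, 2 and 3 and 43, 27 and 25 reads in EZH2i replicates 1, 2 and 3. Replicate 1 was the highest library in both groups, and the groups overlapped. The means were 3.94 ± 1.21 and 4.27 ± 1.35 CPM (SD, n = 3 each), and the log2 difference of 0.14 ± 0.314 (standard error) did not pass (edgeR, adjusted p = 0.857). The sign turned without EZH2i replicate 1 (-0.146) and without DMSO replicate 3 (-0.017), so these data give no direction for *CDH24*.

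Below the test's minimum, *CDH22*, a type II cadherin of the brain, had 7, 3 and 4 reads in DMSO and 7, 4 and 5 reads in EZH2i (replicates 1, 2 and 3 in that order, as in all lists of reads that follow). *CDH15*, the M-cadherin of muscle and a type I cadherin, had 0, 7 and 5 reads in DMSO and 6, 8 and 4 in EZH2i. Both overlapped between the groups. *CDH26*, which belongs to neither type, had 2, 0 and 0 reads in DMSO and 2, 1 and 5 in EZH2i.

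*CDH1*, the E-cadherin of epithelia, had no read in any DMSO library and 2, 1 and 1 reads in EZH2i. These counts are within the 3 reads that a library with 0 allows, so no fold is given. *CDH2*, the N-cadherin, and *CDH3*, the P-cadherin, had no read in any library. *CDH5*, the VE-cadherin of endothelium, had 3 reads in all. *CDH7*, *CDH8*, *CDH9*, *CDH10*, *CDH19* and *CDH20* of type II and *CDH13* and *CDH16* of the other *CDH* genes were at 0, and *CDH4*, *CDH6*, *CDH11*, *CDH12*, *CDH17*, *CDH18* and *CDH23* had from 1 to 6 reads each.

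**Figure D4:**
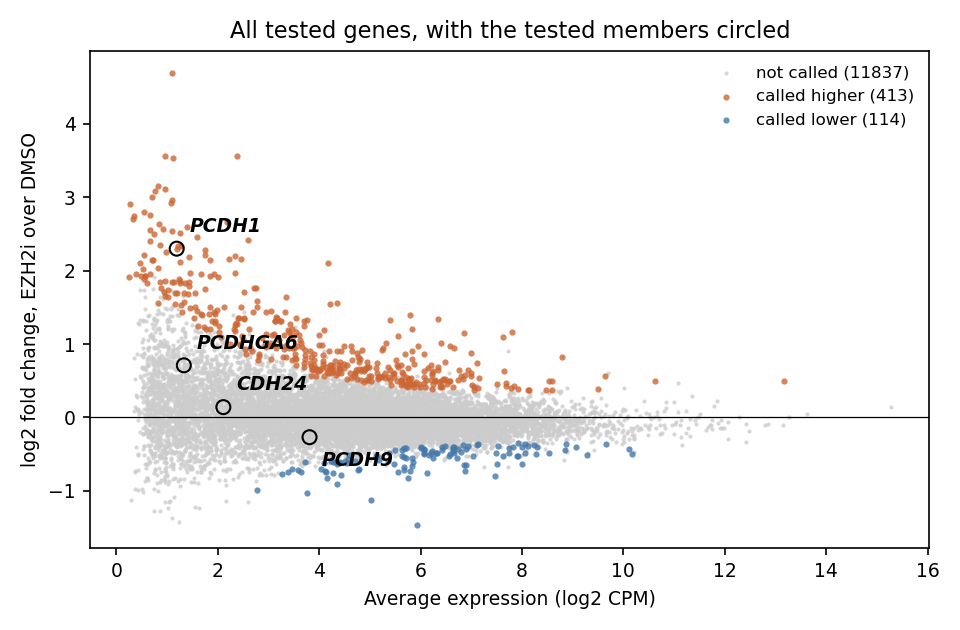
log2 fold change of EZH2i over DMSO (vertical axis) against average expression in log2 CPM (horizontal axis) for the 12364 tested genes; orange genes were called higher, blue genes lower, and the 4 tested members are circled. *PCDH1* lies among the orange genes at low expression, and *PCDH9*, *CDH24* and *PCDHGA6* lie among the grey ones.

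In the PCDHA and PCDHG clusters, counting was limited by shared sequence. Each gene has its own large first exon, which encodes the extracellular part, and joins it to short constant exons at the 3' end of its cluster. A 3' library reads the end of a transcript, so a full-length transcript of any gene of one cluster ends in the same sequence. All 37 genes of these clusters had at least 1 coding transcript whose last 500 bases were wholly made of 50-base stretches found in another gene as well. Of their 90 coding transcripts 47 ended in this way, and 30 of the 37 genes also had another coding transcript with at most 10% of such stretches at its end. Reads in exons of several genes are by default not counted to any gene by the counting tool that the submitters' processing notes name. The mode the authors used is not given in the sources used here. Rows for reads that met several genes held from 2.25% to 2.48% of all listed reads per library, and how many of them came from these clusters was not tested. Counts of PCDHA and PCDHG genes leave out reads on the constant exons if that default was kept.

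The PCDHB genes have single-exon coding sequences with ends of their own. All 16 had a coding transcript end with at most 10% shared stretches, and 2 of their 30 transcripts ended in wholly shared sequence. No coding transcript of the *CDH* genes or of the protocadherins outside the clusters did.

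**Figure D5:**
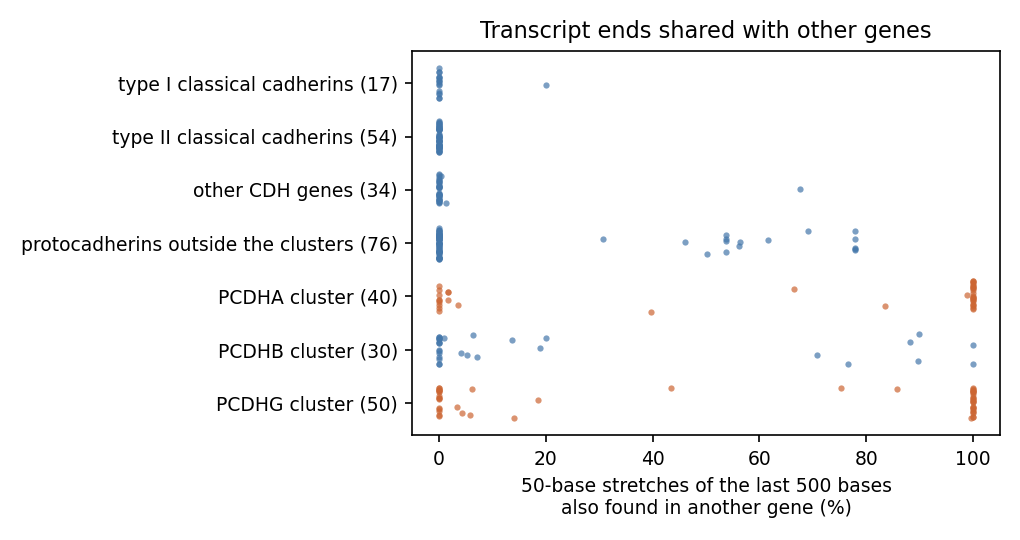
Share of the 50-base stretches in the last 500 bases of each coding transcript that also occur in another gene (horizontal axis, percent), by family (rows, with the number of transcripts; points are spread vertically for view). Transcripts of the PCDHA and PCDHG clusters (orange) fall mostly near 0% or at 100%, with some between, while most others (blue) lie near 0%.

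The PCDHG cluster (chr5:141330514-141512977, 22 genes, plus strand) had 252 reads over all libraries, 33, 50 and 39 in DMSO and 39, 55 and 36 in EZH2i. These were 5.22, 5.74 and 4.34 RPM in DMSO and 5.36, 6.95 and 5.20 in EZH2i, and the groups overlapped. The PCDHA cluster (chr5:140786136-141012347, 15 genes, plus strand) had 1 read in all, on *PCDHA10* in EZH2i replicate 2. The PCDHB cluster (chr5:141051374-141249365, 16 genes, plus strand) had 5, 6 and 3 reads in DMSO and 2, 6 and 10 in EZH2i, spread over 8 genes, of which *PCDHB14* had the most with 9. The other 8 PCDHB genes had none.

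*PCDHGA6* carried 41.3% of the PCDHG reads and was the one clustered gene tested. Of its 2 coding transcripts, 1 ends in wholly shared sequence and the other has an end of its own. It had 7, 15 and 19 reads in DMSO replicates 1, 2 and 3 and 25, 26 and 12 reads in EZH2i replicates 1, 2 and 3. EZH2i replicates 1 and 2 lay above all DMSO libraries, but EZH2i replicate 3, at 1.72 CPM, lay below DMSO replicates 2 and 3. The means were 1.68 ± 0.538 and 2.79 ± 0.933 CPM (SD, n = 3 each), and the log2 difference of 0.71 ± 0.385 (standard error) did not pass (edgeR, adjusted p = 0.33). A lack of difference cannot be read from this, since the summed reads gave 1.71 (exact Poisson 95% interval 1.22 to 2.31) and 2.85 (2.19 to 3.65) RPM.

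The other PCDHG genes with 10 or more reads had too few for the test. Their summed RPM was lower in EZH2i for *PCDHGA1*, *PCDHGA5*, *PCDHGA7* and *PCDHGB6* and higher for *PCDHGA2*. *PCDHGA1* had 9, 11 and 9 reads in DMSO and 6, 6 and 11 in EZH2i, and *PCDHGA2* had 1, 1 and 2 in DMSO and 1, 2 and 5 in EZH2i. *PCDHGA5* had 6, 6 and 3 reads in DMSO and 2, 1 and 2 in EZH2i, and every EZH2i library was below every DMSO library. Its summed reads gave 0.624 RPM in DMSO (exact Poisson 95% interval 0.349 to 1.03) and 0.226 in EZH2i (0.0734 to 0.528). These intervals overlap, which does not show a lack of difference. *PCDHGA7* had 5, 5 and 2 reads in DMSO and 1, 2 and 2 in EZH2i, and *PCDHGB6* had 0, 3 and 4 in DMSO and 2, 2 and 0 in EZH2i. Of the rest of the cluster, 11 genes had from 1 to 9 reads, and *PCDHGA3*, *PCDHGB4*, *PCDHGB7*, *PCDHGC4* and *PCDHGC5* had none. Both coding transcripts of *PCDHGB4* end in wholly shared sequence.

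Most promoters of clustered protocadherins are known to carry a conserved element with the core CGCT, and the looping factor CTCF binds at these promoters. The 40 bases around this core (in capitals) are shown for the PCDHG genes with 10 or more reads, with a gene of each other cluster beside them, because it is the element these promoters are known for:
PCDHGA1: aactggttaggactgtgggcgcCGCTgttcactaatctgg
PCDHGA2: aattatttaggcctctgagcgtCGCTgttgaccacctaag
PCDHGA5: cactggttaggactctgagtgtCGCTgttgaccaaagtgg
PCDHGA6: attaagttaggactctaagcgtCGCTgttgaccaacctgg
PCDHGA7: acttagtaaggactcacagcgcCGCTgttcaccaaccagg
PCDHGB6: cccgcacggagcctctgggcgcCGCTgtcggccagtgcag
PCDHA1: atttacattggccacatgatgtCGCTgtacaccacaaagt
PCDHB2: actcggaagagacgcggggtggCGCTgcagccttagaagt

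All are on the plus strand of GRCh38.p14 and come from the RefSeq promoter table, which matched 70 of the 89 genes. They lie at chr5:141330397-141330436, chr5:141338697-141338736, chr5:141364101-141364140, chr5:141373829-141373868, chr5:141382643-141382682, chr5:141407918-141407957, chr5:140786080-140786119 and chr5:141094538-141094577, in the order of the lines. The core began 95, 41, 39, 40, 77, 81, 38 and 55 bases before the RefSeq start of the respective gene. *PCDHGB6* and *PCDHB2* each had a second match, 57 and 13 bases before the start, and the match farther from the start is shown for both. CGCT on the gene's own strand was found in the 100 bases before the start in 44 of 52 windows of 47 clustered protocadherins (84.6%) and in 28.1% of all 35116 windows, and on either strand in 88.5% and 44.8%. These are matches to the core alone, and the rest of the element was not searched for, so they do not count the element. The length of 100 bases was chosen after the positions had been seen. *PCDHGB2*, with 6 reads, had no match there on its own strand.

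The tested partners of the cadherins had more reads than most members. Those not tested were *CTNND2* and *PKP1* with 0 reads, *CTNNA2* with 8 and *CTNNA3* with 28 over all libraries. None of 11 tested genes among 15 catenins and junction partners was called by edgeR or DESeq2. Among all tested genes edgeR called 3.34% higher and 0.922% lower, so this count is not read as a result about these 11 genes. In edgeR 2 of them had an unadjusted p under 0.05, a count given without the share over all tested genes. Their log2 fold changes ran from -0.16 to 0.84 with a median of 0.02, beside 0.00 for all tested genes (-0.000215 before rounding). The highest was that of *PKP2*, plakophilin 2 of desmosomes, named after its values were seen, which had 27, 25 and 28 reads in DMSO and 42, 45 and 49 in EZH2i, without overlap (0.84; edgeR, adjusted p = 0.0843). *CTNNB1*, which encodes beta-catenin, differed by 0.15 on the log2 scale (edgeR, adjusted p = 0.448), and *CTNNA1*, alpha-catenin, by 0.02 (edgeR, adjusted p = 0.951). *JUP*, plakoglobin, was at -0.02 (adjusted p = 0.953, edgeR). *CTNND1*, p120-catenin, had 21.7, 23.9 and 20.0 CPM in DMSO and 30.6, 28.8 and 26.5 CPM in EZH2i, without overlap, and its log2 difference of 0.39 did not pass (edgeR, adjusted p = 0.117).

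Other genes of the cadherin superfamily contributed 8 tested genes of 25, and 2 of them were called higher and none lower, beside 3.34% called higher among all tested genes. *CLSTN1*, calsyntenin 1, a transmembrane protein of vesicle transport with cadherin repeats, had 190, 205 and 216 reads in DMSO and 417, 376 and 328 reads in EZH2i, without overlap. Its mean rose from 26.2 ± 3.06 CPM in DMSO to 50.3 ± 5.37 CPM in EZH2i (SD, n = 3 each). The log2 difference was 0.95 ± 0.132 (standard error; edgeR, adjusted p = 0.000732), and it passed under all 13 alternatives. *FAT1*, a giant atypical cadherin, rose from 11.3 ± 0.335 CPM in DMSO to 16.7 ± 0.191 CPM in EZH2i (SD, n = 3 each), by 0.57 on the log2 scale (edgeR, adjusted p = 0.0489), and passed under none of the 13 alternatives (adjusted p from 0.052 to 0.147). The median of the 8 genes was 0.26.

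Of the regulators around these genes, none was called by edgeR with the filter on low counts or by DESeq2, beside 3.34% called higher and 0.922% called lower among all tested genes. This held for all 18 chromatin and looping factors of the protocadherin clusters, such as CTCF, cohesin subunits and SMCHD1, with log2 fold changes from -0.25 to 0.33 and a median of 0.00, of which 3 had an unadjusted p under 0.05. It also held for 5 tested repressors of *CDH1* of 8 listed (from -0.79 to 0.53, median 0.30, all 5 at an unadjusted p under 0.05). These did not share a direction: *SNAI1* (-0.79) and *TCF3* (-0.23) were lower, and *SNAI3* (0.53), *ZEB1* (0.49) and *ZEB2* (0.30) were higher. All 9 genes of cadherin cleavage and maturation were likewise not called (from -0.49 to 0.15, median 0.02, 1 at an unadjusted p under 0.05). The share of all tested genes at an unadjusted p under 0.05 is not given here, so the counts at that threshold are a description only. In edgeR without the filter, *SNAI1*, a repressor of *CDH1* at -0.79 with it, and *NCSTN*, a subunit of gamma-secretase at -0.49 with it, were called lower.

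Markers of other cell types were present at some level, and several moved with the treatment. The fibroblast collagen *COL1A1* rose by 1.91 on the log2 scale (edgeR, adjusted p = 0.00424), and *COL3A1* and *DCN* had 2 and 18 reads in all. The summed fibroblast list went from between 1.42 and 2.56 RPM in DMSO to between 5.09 and 8.66 in EZH2i. *CD3D* of T cells (0.46, adjusted p = 0.0309) and *LYZ* of monocytes (0.62, adjusted p = 0.0426) were also called higher by edgeR. The summed T cell list lay between 59.1 and 69.4 RPM in DMSO and between 82.4 and 102 in EZH2i, and the monocyte list lay between 10.9 and 16.6 in DMSO and between 20.5 and 23.6 in EZH2i. Among the epithelial markers *EPCAM* was not called (-0.28, adjusted p = 0.156, edgeR) and *KRT5* was at 0. That list summed to between 71.7 and 80.7 RPM in DMSO and 61.9 and 67.1 in EZH2i. The B cell list lay between 3.21 and 4.27 in DMSO and between 3.41 and 5.05 in EZH2i, with *MS4A1* at 0, and the neuronal list held 1 read. The part of these markers in the result for *PCDH1* was not tested.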

How the data were processed

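Counts per gene were deposited for 6 libraries, 3 per group, in separate cultures per the study's methods. The submitters' processing notes name STAR 2.6.0c and HTSeq 0.11.2 on hg38; the annotation was from Ensembl per the study, and the strand setting and counting mode are not given in the sources used here. The authors deposited raw counts, not normalized and not pooled. A further table holds their DESeq2 comparison (mean normalized counts, log2 fold changes, standard errors, p-values) and was not used.

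Rows that name no gene held 32.1% to 33% of listed reads in 5 libraries and 36.4% in EZH2i replicate 3, which had 12.7% of reads on no feature (7.43% to 8.51% in the others), and were left out. The test was edgeR's (version 4.0.16, R 4.3.3; TMM, filterByExpr with a minimum count of 10, glmQLFit, glmQLFTest, two-sided, Benjamini-Hochberg over 12364 genes, threshold 0.05). The standard error is the log2 fold change divided by the square root of F. Alternatives were DESeq2 1.42.0, limma-voom (limma 3.58.1), RLE size factors, other filters, a replicate block and leaving out each library. Gene models and shared transcript ends came from GENCODE 44 on GRCh38, a later annotation than the authors' of the same build, promoters from RefSeq.

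Members and gene lists were chosen with earlier results of these data known. Named were all tested members, members with at least 10 reads, *CTNNB1*, *JUP*, *CTNND1*, *CTNNA1*, *EZH2* and called list genes; other genes were named after their values were seen. Replicate pairs differed by more than sampling noise (4.25 to 11.5 for chi-square divided by its degrees of freedom).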

Additional observations from a re-analysis of the deposited data

How the results depend on the processing

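*PCDH1* was called higher under 12 alternatives, and the 1 that required at least 10 counts in every library, where it was not tested, called 0 members higher. No member was called lower under any alternative. All genes called numbered 527. With every gene that had a read tested they numbered 928 (579 higher, 349 lower), and they ranged from 209 to 536 when a library was left out. Leaving out a DMSO library gave from 180 to 189 called higher and from 20 to 55 called lower. The shares of 3.34% and 0.922% thus belong to the main fit only. The lists around the cadherins held 2 called genes; DESeq2, limma-voom, RLE size factors, at least 10 counts in every library and the replicate block each left 1, no filter gave 4, and leaving out a library gave from 1 to 2. Leaving out each library, *CDH24* ranged from -0.146 to 0.388, *JUP* from -0.159 to 0.175 and *CTNNA1* from -0.007 to 0.047 (log2). *CDH24* was at -0.017 without DMSO replicate 3 and -0.146 without EZH2i replicate 1. *JUP* turned above 0 without DMSO replicate 2 (0.013), DMSO replicate 3 (0.003) or EZH2i replicate 1. *CTNNA1* turned to -0.006 without a filter, -0.004 with a minimum count of 3, -0.007 without DMSO replicate 3 and -0.006 without EZH2i replicate 2. The cause was not tested. Replicate numbers did not pair the libraries (correlations of deviations from -0.0511 to -0.017); with the replicate block 599 genes were called, and *PCDH1* was among them. The filter left out 85 of the 89 members, and the part of depth in this was not tested. Without the filter, edgeR tested the 44 members with a read.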

Other observations

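*CDHR1*, a cadherin-related gene of photoreceptors that was chosen after its values were seen, had 0, 2 and 1 reads in DMSO replicates 1, 2 and 3 and 8, 12 and 9 reads in EZH2i replicates 1, 2 and 3, without overlap. It had too few reads for edgeR's filter with all libraries and was called by edgeR without a filter, with a minimum count of 3 and without EZH2i replicate 1, but not by DESeq2. It passes a filter on low counts only through the group in which it is high, so these calls are given as a description. All 5 reads of *PCDHGA8* and 5 of the 6 reads of *PCDHGB2* were in EZH2i replicate 2. These genes were chosen after their values were seen.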
